A study of Mus musculus with 2 samples.

Results

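The Ugt1a genes of the mouse encode UDP-glucuronosyltransferases, enzymes of the endoplasmic reticulum that join glucuronic acid to bilirubin, steroids, bile acids, phenols and many drugs. Each gene of the locus has its own first exon and promoter, and its transcript is spliced to the same later exons. The first exon encodes the part of the enzyme that binds the substrate, and the shared exons encode the part that binds UDP-glucuronic acid. Liver and intestine are the main sites of expression, and the Ugt1a6 genes are widely used examples of targets of the aryl hydrocarbon receptor (AhR) and of NRF2, the regulator of antioxidant genes.

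9 Ugt1a genes (Ugt1a1, Ugt1a2, Ugt1a5, Ugt1a6a, Ugt1a6b, Ugt1a7c, Ugt1a8, Ugt1a9 and Ugt1a10) were looked up by symbol, through the Ensembl identifiers of GENCODE mouse release M21, in count tables of 24223 genes, and 8 of them were found. Ugt1a9 was not among the genes of the tables and was not analysed here. The locus was chosen because of its counts in these libraries, so the values of its genes are a description and no test of them is given. RNA-seq was available for 1 library of DAC-treated CT26 cells and 1 library of control CT26 cells. CT26 is a colorectal cancer cell line from a BALB/c mouse, and DAC (decitabine) is a cytosine analog that inhibits DNA methyltransferases. The treated cells were given 1 μM DAC in 3 doses at intervals of 24 h and were kept for 24 h more in medium without DAC, and the control cells were cultured in parallel without DAC. With 1 library in each group, no difference has a replicate check, and 1 culture cannot be told apart from the treatment.

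The libraries held 35163420 counts (DAC) and 34221886 counts (control). Counts were scaled with TMM factors to CPM (counts relative to the scaled library size), with 1 CPM worth 37.6 DAC counts or 32 control counts. A gene was called lower or higher in the DAC library when it reached 1 CPM in either library, its CPM ratio of DAC to control was at most 0.5 or at least 2, and its exact 95% counting interval (Clopper-Pearson) did not reach across 1. Intervals follow the ratios in parentheses and cover counting error only, not variation between cultures or libraries. They take reads as independent. Reads without molecular identifiers are not independent molecules, so the intervals may be too narrow even for counting error. Where a gene had a count of 0, 3 counts in that library stood for it in the ratio, which is not a limit of the counting interval. Of 13545 genes that reached 1 CPM, 5.29% were called lower and 10.8% higher. The 9 epithelial markers in the tables summed to 77.7 CPM in the control and 262 CPM in the DAC library, with Cdh1 at 0 and 9 counts, Krt8 at 5 and 4445 and Krt18 at 1797 and 3579. At 3 counts or fewer were 3 of these markers in control and 1 in DAC. The epithelial markers moved with the condition, and their part in the Ugt1a values was not tested. The 5 hepatocyte markers summed to 2.25 and 1.97 CPM, with albumin (Alb) at 0 and 2 counts. Of the 2 hepatocyte markers that reached 1 CPM, Cps1 was lower, with 37 control and 0 DAC counts as in Ugt1a1 and Ugt1a2, and Apoa1 had 32 and 64 counts. The part of these markers in the Ugt1a values was not tested. The 2 leukocyte markers summed to 1.06 and 0.452 CPM, with Ptprc at 3 and 0. The 7 mesenchymal markers summed to 7985 and 3268 CPM, most of it Fn1 (6577 and 1742 CPM), while the median log2 ratio of the 6 that reached 1 CPM was 0.08 and 2 of them, Fn1 and Snai2, were lower.

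The first question was which of the genes could be told apart. The locus lies on the plus strand of chromosome 1 of GRCm38 (the assembly that mm10 names), from 88055388 to 88220002. The order of the first exons from the far end is Ugt1a10, Ugt1a9, Ugt1a8, Ugt1a7c, Ugt1a6b, Ugt1a6a, Ugt1a5, Ugt1a2 and Ugt1a1. The coding first exon ends 159 kb before exon 2 in Ugt1a10, 75.7 kb before it in Ugt1a6a, 48.1 kb in Ugt1a5, 13.5 kb in Ugt1a2 and 2.17 kb in Ugt1a1. Exons 2 to 5 are annotated to all 9 genes and hold 1311 shared bases. A read that lies inside one of these exons cannot name its gene.

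**Figure D1:**
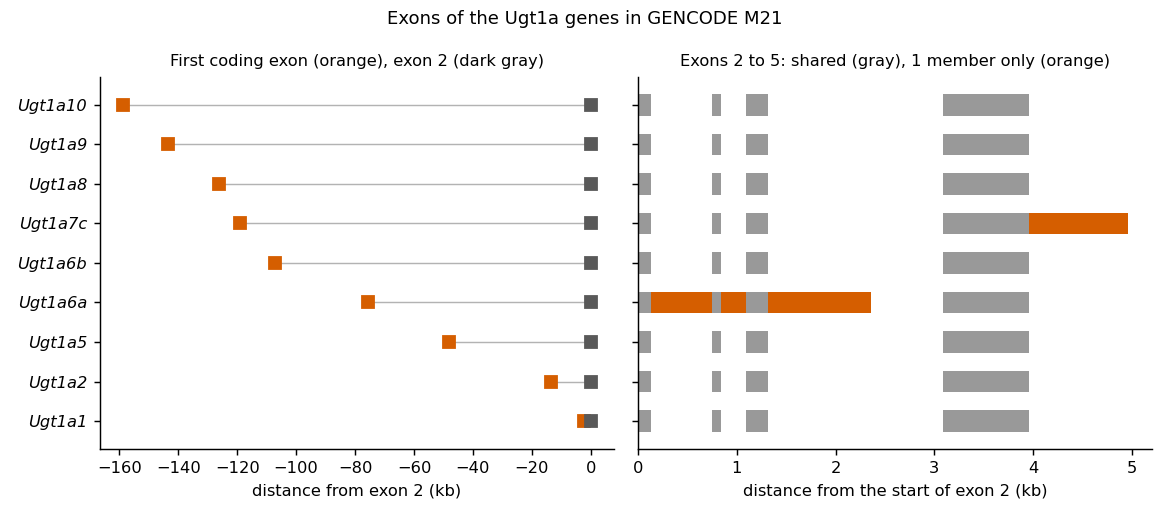
Exons of the 9 Ugt1a genes in GENCODE M21. The left panel gives the distance in kb of each gene's coding first exon (orange) from exon 2 (dark gray), and the right panel gives exons 2 to 5 in kb from the start of exon 2, with bases annotated to several genes in gray and to 1 gene in orange. The last 998 bases belong to Ugt1a7c alone in this annotation, and Ugt1a6a alone has exon bases inside the introns between exons 2 and 5.

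By their coding first exons, the genes fell into 4 groups joined by at least 80% identity. Ugt1a7c, Ugt1a8, Ugt1a9 and Ugt1a10 were 80.8% to 91.3% identical in pairs, Ugt1a2 and Ugt1a5 were 81.4% identical, Ugt1a6a and Ugt1a6b were 97% identical, and Ugt1a1 stood alone. Between groups the identity was 55% to 59%. The closest pair, Ugt1a6a and Ugt1a6b, differed at 26 of 858 coding bases of the first exon. The 120-base window that holds most of these differences, 15 of them, is shown (bases 241 to 360 from the start codon, differing bases in capitals), since elsewhere in this exon there is less to tell the 2 genes apart.
Ugt1a6a: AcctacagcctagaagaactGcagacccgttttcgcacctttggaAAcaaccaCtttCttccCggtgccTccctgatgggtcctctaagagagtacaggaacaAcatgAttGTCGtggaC
Ugt1a6b: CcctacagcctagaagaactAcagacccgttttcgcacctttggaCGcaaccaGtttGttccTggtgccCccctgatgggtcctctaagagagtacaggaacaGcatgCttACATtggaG

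Annotated transcripts blurred the genes further. In GENCODE M21, a transcript assigned to Ugt1a7c uses 859 of the 954 bases of the Ugt1a6a coding first exon, and 127 bases of a noncoding first exon of Ugt1a6b. GENCODE ends 8 genes before the last base of the locus and gives the final 998 bases to Ugt1a7c alone, whereas in RefSeq (GRCm38.p6) 7 of the 9 genes end at that last base. A read from this end would thus name Ugt1a7c in one annotation and no single gene in the other. Ugt1a6a has 2142 own exon bases, but of these 1046, 619 and 255 lie in the introns between exons 2 and 5. The stretches of 619 and 255 bases span whole introns, whereas the 1046 bases follow exon 4 and end before exon 5. The noncoding gene Gm20528 lies on the opposite strand and overlaps 528 bases of the Ugt1a1 first exon, which leaves 385 bases to Ugt1a1 where strand was not used in counting. The strand setting of the counting was not stated. Of the 50-base stretches in the transcripts of each gene, 52.1% (Ugt1a6a) to 80.2% (Ugt1a1) also occurred in other genes on either strand, with 79.8% in Ugt1a6b, and for Ugt1a1 58.2% occurred in other Ugt1a genes. By position, the first exons of Ugt1a2 (900 bases), Ugt1a5 (892), Ugt1a8 (909) and Ugt1a9 (879) are annotated to no other gene. The same holds for the coding first exon of Ugt1a6b (938) and for 917 bases at the coding first exon of Ugt1a7c. A read there can name its gene, less readily in Ugt1a6b. The bases that Ugt1a2 and Ugt1a5 share are the 1311 of exons 2 to 5. The authors' counting program, its annotation release and its handling of shared exons are likewise not given in the sources consulted. Had every read in exons 2 to 5 been counted for each gene that holds them, no Ugt1a gene could stay at 0 once such a read was present. In the DAC library Ugt1a1, Ugt1a2, Ugt1a8 and Ugt1a10 had 0 counts beside 974 counts in the other 4 genes, so shared reads were either left out or given to some of the genes.

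The 5 genes Ugt1a1, Ugt1a2, Ugt1a5, Ugt1a6a and Ugt1a7c were lower in the DAC library by the 2-fold rule, among 6 Ugt1a genes that reached 1 CPM, and none was higher. By library totals, without TMM factors, 4 were lower. The genes were chosen on this contrast, so nothing is read from that count beside the 5.29% of all genes. Ugt1a1 (ENSMUSG00000089960), on chromosome 1 from 88211959 to 88218997, encodes the enzyme that conjugates bilirubin. It had 144 counts (4.5 CPM) in the control library and 0 in the DAC library, 56.3-fold lower with 0 set to 3 counts. Ugt1a2 (ENSMUSG00000090171, 88200601 to 88218997) had 106 counts (3.31 CPM) and 0, 41.5-fold lower in the same way. The counting intervals of these ratios begin nearer to 1, at 45.2-fold and 33.1-fold lower. Ugt1a5 (ENSMUSG00000089943, 88166012 to 88218997), the gene with the first exon most like that of Ugt1a2, had 105 counts (3.28 CPM) in control and 6 (0.16 CPM) in DAC, a ratio of 0.0487 (0.0175 to 0.11). These are the 3 genes whose first exons lie nearest to exon 2, and together they went from 355 counts to 6, a ratio of 0.0144 (0.00525 to 0.0317). Ugt1a10 and Ugt1a8, with first exons 159 and 126 kb from exon 2, also had 0 DAC counts, beside 26 control counts together. This grouping was chosen after the values were seen, and a link to the distance was not tested.

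Most of the counts left in the DAC library belonged to Ugt1a6a, Ugt1a6b and Ugt1a7c. Ugt1a6a (ENSMUSG00000054545, 88134809 to 88218997), whose enzyme conjugates small phenols, had 772 counts (24.1 CPM) in the control and 272 (7.24 CPM) in the DAC library, a ratio of 0.3 (0.261 to 0.345). Ugt1a6b (ENSMUSG00000090145, 88103252 to 88219003), its near copy, had 194 counts (6.06 CPM) and 165 (4.39 CPM), a ratio of 0.725 (0.585 to 0.897), which did not pass the 2-fold rule. Because the first exons of this pair are so alike, their sum is given too, and it went from 966 to 437 counts, a ratio of 0.386 (0.344 to 0.432). Ugt1a7c (ENSMUSG00000090124, 88095062 to 88220002) had the highest count in both libraries, 929 (29 CPM) and 531 (14.1 CPM), a ratio of 0.487 (0.437 to 0.543). It lay just inside the threshold of 0.5, the upper end of its interval lay outside, and by library totals it was no longer called (log2 ratio -0.85). Among the Ugt1a genes, Ugt1a7c at 0.487 was the nearest to the threshold from inside and Ugt1a6b at 0.725 the nearest from outside, with its whole interval above 0.5. Ugt1a8 (ENSMUSG00000089675, 88087813 to 88219004) and Ugt1a10 (ENSMUSG00000090165, 88055388 to 88219004) each had 13 counts in control and 0 in DAC. Both stayed under 1 CPM (0.406 CPM in control) and were not open to a call.

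**Figure D2:**
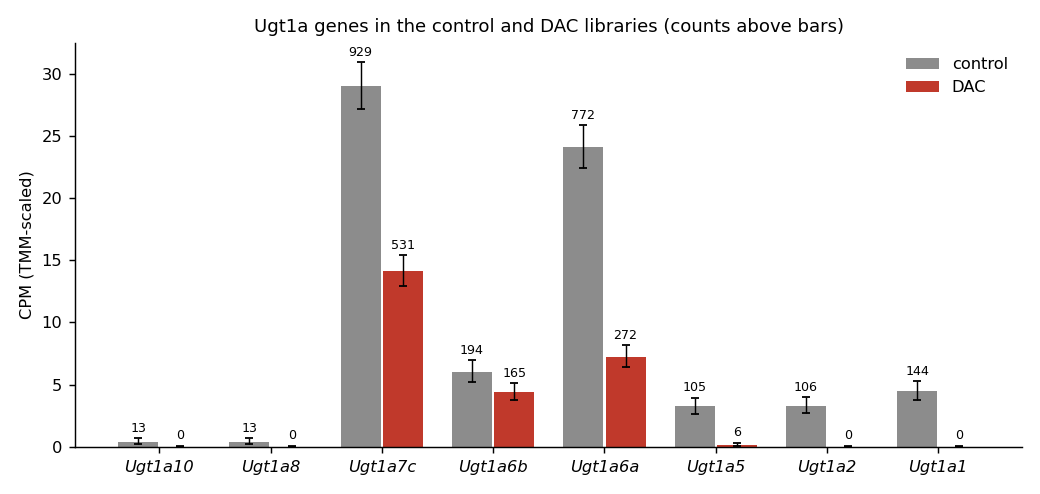
CPM (y axis, linear, from 0) of the 8 Ugt1a genes in the count tables, in the order of their first exons (x axis), with gray bars for the control library and red bars for the DAC library. Whiskers are exact 95% counting intervals of 1 library, not replicate errors, and the numbers above the bars are the deposited counts. Ugt1a1 and Ugt1a2 have 144 and 106 control counts and 0 DAC counts.

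The sum over the locus was also lower. The 8 genes held 2276 counts (71.1 CPM) in the control and 974 (25.9 CPM) in the DAC library, a ratio of 0.365 (0.338 to 0.393), or 2.74-fold lower. As long as no read was counted more than once, this sum does not depend on how shared reads were divided among the genes. It does depend on whether shared reads were counted at all, and how they were counted is not known. Without Ugt1a7c, the gene with the most counts, the other 7 genes went from 1347 to 443 counts, a ratio of 0.28 (0.251 to 0.312). Ugt1a6a, Ugt1a6b and Ugt1a7c together went from 1895 to 968 counts, a ratio of 0.435 (0.402 to 0.471).

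The makeup of the sum differed between the libraries. Ugt1a7c held 40.8% of the Ugt1a counts in control (exact 95% interval 38.8% to 42.9%) and 54.5% (51.3% to 57.7%) in DAC. Ugt1a6b held 8.52% (7.41% to 9.75%) and 16.9% (14.6% to 19.4%), and Ugt1a6a held 33.9% (32% to 35.9%) and 27.9% (25.1% to 30.9%). Ugt1a1, Ugt1a2 and Ugt1a5 made up 15.6% in control and 0.616% in DAC. The share of Ugt1a1 was 6.33% (5.36% to 7.41%) in control, and its 0 counts in DAC allow a share of up to 0.378% by the exact interval. The shares rest on the authors' assignment of reads and would move with it.

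**Figure D3:**
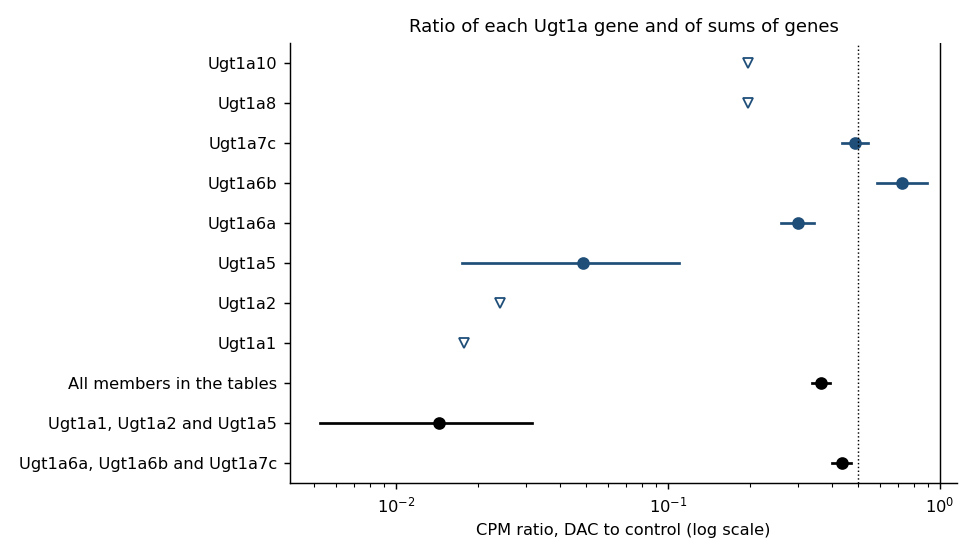
DAC CPM divided by control CPM (log-scaled x axis) of the 8 Ugt1a genes (blue) and of 3 sums (black), with exact 95% counting intervals as lines. Open triangles mark genes with 0 DAC counts, placed at 3 counts and drawn without an interval. The true ratio may lie further left, and the upper ends of their counting intervals lie further right. The solid line is a ratio of 1 and the dotted line 0.5, with Ugt1a7c at 0.487 and the sum of all 8 genes at 0.365.

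Levels of different genes can be set side by side only per length, and here the order turned on the length used. Per kb of all annotated exon bases, the control library held 6.88 CPM for Ugt1a7c, 5.59 for Ugt1a6a, 2.54 for Ugt1a6b, 2.02 for Ugt1a1, 1.5 for Ugt1a2 and 1.49 for Ugt1a5. Ugt1a2 and Ugt1a5, neighbors in this order, were not separable beyond counting error, with 106 and 105 counts. Ugt1a10 and Ugt1a8 stood at 0.179 and 0.182 CPM per kb, from 13 counts each. Per kb of bases that no other gene shares, Ugt1a7c stood at 15.1, Ugt1a1 at 11.7, Ugt1a6a at 11.3 and Ugt1a6b at 6.46 CPM in control. Ugt1a1 thus moved up from the fourth place, but it and Ugt1a6a were not separable beyond counting error. These lengths are uncertain. They include the 998 end bases of Ugt1a7c that RefSeq does not give to it alone, and the intron bases annotated as exon to Ugt1a6a. The 385 bases of Ugt1a1 hold only where strand was not used. This scale also takes all counts as reads from unshared bases, which is not known. In the DAC library, per kb of all exon bases, the levels were 3.35 CPM for Ugt1a7c, 1.84 for Ugt1a6b, 1.68 for Ugt1a6a and 0.0725 for Ugt1a5. Ugt1a6a and Ugt1a6b were not separable beyond counting error in the DAC library on this scale.

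Genes at 0 in the DAC library were listed over the whole tables, with no matching on the level of expression. Of 10965 genes with at least 100 control counts, 2 had 0 DAC counts, Ugt1a1 and Ugt1a2, while 42 genes had 0 control counts and at least 100 DAC counts. Of 11975 genes with at least 50 control counts, 4 had 0 DAC counts, and 2 of them were Ugt1a genes. Of 14346 genes with at least 13, 43 had 0 DAC counts, and 4 of them were Ugt1a genes. The locus was chosen on these counts, so nothing is read from its place among these genes. Of the genes with 0 DAC counts outside the locus, those with the most control counts were Hist2h2aa1 (73), Ccdc7b (54), Gm28051 and Cps1 (37 each) and Gm13431 (35). Hist2h2aa1, a histone gene, shared 100% of its 50-base stretches with other genes, Gm28051 87.1% and Ccdc7b 14.0%, whereas Cps1, a urea cycle enzyme of the liver, and Gm13431 shared 0%. These 5 genes were picked for the same pattern, and with 2 libraries no finer measure of likeness can be had.

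The promoters were examined because DAC acts on the methylation of CG dinucleotides, though methylation itself was not analysed here. RefSeq sequences (GRCm38.p6) of the 250 bases before the start were found for 8 of the 9 genes. They held 0 to 3 CG dinucleotides each, namely 0 in Ugt1a7c and Ugt1a10, 1 in Ugt1a8, 2 in Ugt1a1, Ugt1a6a and Ugt1a9, and 3 in Ugt1a2 and Ugt1a5. Over 32851 mouse promoters of the same length the median was 6, and 37.8% held 3 or fewer. The promoters of Ugt1a1 (chr1:88211709-88211958), Ugt1a2 (chr1:88200361-88200610) and Ugt1a6a (chr1:88134559-88134808), all on the plus strand, are shown with CG in capitals, since the counts of the first pair were 0 in DAC while Ugt1a6a kept 272.
Ugt1a1: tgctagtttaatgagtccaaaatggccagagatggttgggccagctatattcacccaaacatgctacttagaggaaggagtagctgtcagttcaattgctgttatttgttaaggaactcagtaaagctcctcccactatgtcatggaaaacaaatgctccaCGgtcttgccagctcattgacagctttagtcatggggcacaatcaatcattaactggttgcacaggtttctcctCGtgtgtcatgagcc
Ugt1a2: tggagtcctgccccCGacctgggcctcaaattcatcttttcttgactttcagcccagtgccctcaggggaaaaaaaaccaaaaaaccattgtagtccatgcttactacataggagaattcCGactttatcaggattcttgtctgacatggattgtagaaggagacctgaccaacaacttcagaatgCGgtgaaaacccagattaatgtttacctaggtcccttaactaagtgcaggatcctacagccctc
Ugt1a6a: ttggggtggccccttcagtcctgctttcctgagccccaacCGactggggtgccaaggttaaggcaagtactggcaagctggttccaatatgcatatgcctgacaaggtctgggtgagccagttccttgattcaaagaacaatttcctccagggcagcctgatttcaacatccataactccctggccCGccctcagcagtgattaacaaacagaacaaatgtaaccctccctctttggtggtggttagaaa

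The genes on both sides of the locus were looked at next. Of the 5 nearest protein-coding genes in the tables on each side, 9 of 10 reached 1 CPM. Of these 0 were lower and 1 was higher, beside 5.29% lower and 10.8% higher among all genes tested. Their median log2 ratio was -0.14, beside -0.02 over all genes tested. Usp40, a ubiquitin protease 46837 bases before the locus, had 2449 and 1508 counts, a ratio of 0.525 (0.492 to 0.56), just short of the threshold. Dgkd, a diacylglycerol kinase, had 6208 and 5367 counts, a ratio of 0.737. On the other side, Mroh2a, 6984 bases past the locus, had 369 control and 390 DAC counts (ratio 0.901, 0.779 to 1.04). Hjurp, a chaperone of the centromeric histone, had 9742 and 15027 (ratio 1.31). Sag, Atg16l1, Glrp1 and Arl4c had ratios of 0.908, 1.21, 0.762 and 1.23. The single higher gene was Inpp5d, a phosphatase of blood cells 334881 bases before the locus, with 0 control and 72 DAC counts. Its ratio was 20.5 with the 0 control counts replaced as described above. The counting interval of this ratio begins lower, at 16.2-fold higher. Spp2 had 0 and 2 counts. Inside the locus, the antisense gene Gm20528 had 6 and 4 counts and the pseudogene Gm15376 had 2 and 0.

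Other genes of glucuronidation were taken from lists. Of 13 other UGT genes listed, 4 were in the tables and 0 reached 1 CPM. Ugt2b1, a liver steroid-conjugating gene, had 15 and 0 counts, Ugt8a, which makes galactosylceramide, had 8 and 3, and Ugt2b5 and Ugt2b34 had 0 and 3 each. Together these 4 genes came to 0.718 CPM in control and 0.24 CPM in DAC, beside 71.1 and 25.9 CPM for the Ugt1a genes. Of 17 genes for the supply and turnover of UDP-glucuronic acid, 16 reached 1 CPM, with 0 lower and 1 higher (median log2 ratio -0.33). The higher gene was Gusb, the lysosomal β-glucuronidase that removes glucuronic acid from conjugates, with 659 and 1836 counts, a ratio of 2.37 (2.17 to 2.6). Ugdh, which oxidizes UDP-glucose to UDP-glucuronic acid, had 14027 and 12906 counts, a ratio of 0.784 (0.766 to 0.803). Ugp2, which makes UDP-glucose, had a ratio of 0.676 (0.629 to 0.727) and Slc35d1, which carries UDP-glucuronic acid into the endoplasmic reticulum, 0.978 (0.881 to 1.09). Gpi1, a glycolytic isomerase and the most abundant gene of the list in control, had a ratio of 1.14.

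In the list of heme breakdown, bilirubin and conjugate transport, 14 of 16 genes were in the tables and 9 reached 1 CPM, with 0 lower and 1 higher (median log2 ratio 0.32). Hmox1 and Blvra, which make bilirubin from heme, had 3124 and 5272 counts (ratio 1.44, 1.38 to 1.5) and 334 and 651 counts (1.66, 1.45 to 1.9). Blvrb, the other biliverdin reductase, had a ratio of 1.02. The higher gene was Slco4a1, an organic anion carrier, with 118 and 527 counts, a ratio of 3.81 (3.11 to 4.69). Abcc2 and Abcc3, which export glucuronides, had 0 and 26 counts and 3 and 0 counts and did not reach 1 CPM. Abcc1, the most abundant of the list, had a ratio of 0.724.

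Known regulators of Ugt1a genes formed the next list. Of 33 listed, 30 were in the tables and 21 reached 1 CPM, with 1 lower and 19 not called (median log2 ratio 0.12). Ahr had 1190 and 1674 counts (ratio 1.2, 1.11 to 1.29), its partner Arnt 2731 and 2373 (0.74, 0.701 to 0.783), Nfe2l2, which encodes NRF2, 8239 and 7568 (0.783, 0.759 to 0.808) and Keap1, its inhibitor, 1354 and 2222 (1.4, 1.31 to 1.5). Nr3c1, the glucocorticoid receptor, was lower, with 6652 and 3763 counts (0.482, 0.463 to 0.502), but not by library totals. The xenobiotic receptors Nr1i2 (PXR) and Nr1i3 (CAR) had 3 and 3 counts and 4 and 8.

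Genes known to be driven by AhR or NRF2 were counted in the same way. Of 7 AhR targets, 5 were in the tables and 4 reached 1 CPM, with 3 higher and 1 lower (median log2 ratio 2.81 over 4 genes). Cyp1a1, the best-known target, had 5 and 89 counts (ratio 15.2, 6.26 to 47.9), Nqo1, a quinone reductase of both lists, 18 and 491 (23.2, 14.6 to 39.6) and Aldh3a1, an aldehyde dehydrogenase, 109 and 414 (3.24, 2.62 to 4.03). Tiparp, a repressor of AhR and the most abundant of the list, was lower, with 8402 and 4798 counts (0.487, 0.47 to 0.504), but not by library totals. Of 22 NRF2 targets, 22 reached 1 CPM, 6 were higher and 0 lower (median log2 ratio 0.29). Beside Nqo1 these were Gsr, Pgd, Taldo1, Srxn1 and Osgin1, at ratios of 2.74, 2.6, 2.48, 2.46 and 2.56, of which Gsr reduces glutathione and Pgd and Taldo1 belong to the pentose phosphate pathway. The ferritin gene Ftl1, the most abundant of the list, had a ratio of 0.779. Of 25 other conjugating (phase II) genes, 19 were in the tables and 14 reached 1 CPM, with 2 higher, Gstp2 and Mgst3, and 0 lower (median log2 ratio 0.40). Mgst3, a microsomal glutathione transferase, had 248 and 776 counts (2.67, 2.31 to 3.09), Gstp2 had 0 and 1893, and Gsto1, the most abundant of the list, had a ratio of 0.687. Over these 7 lists 2 genes were lower, Nr3c1 and Tiparp. Of all genes that reached 1 CPM, 5.29% were called lower and 10.8% higher, so lists of this size would hold few lower genes in any case. A difference between the lists and the Ugt1a genes was not tested.

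**Figure D4:**
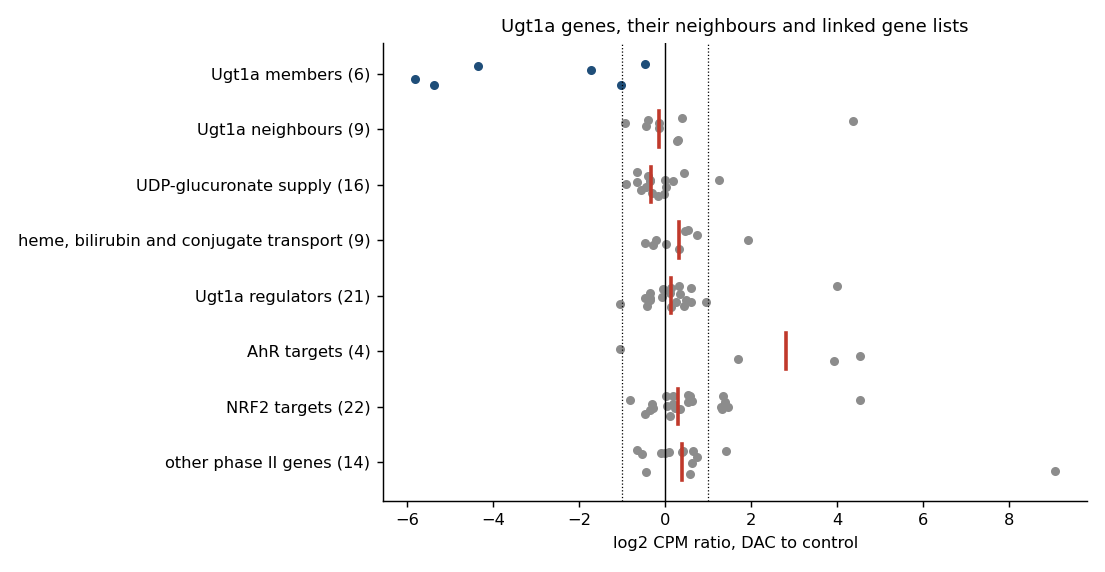
On the x axis, the log2 of DAC CPM over control CPM is drawn for each gene that reached 1 CPM, for the Ugt1a genes (blue), the 10 nearest genes and 6 lists (gray), with the number of genes in parentheses and points spread vertically for view. Red bars are medians, drawn for all rows but the Ugt1a genes, and dotted lines mark 2-fold differences. A count of 0 was set to 3 for this plot. The Ugt1a genes lie between -5.82 and -0.46.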

How the data were processed

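Per the paper's methods, mRNA of CT26 cells was taken from total RNA with poly-T beads and sequenced on an Illumina system. The authors deposited whole-number counts per Ensembl gene, without normalization, for 24223 genes, each with a count above 0 in at least 1 library. The processing notes of the submitters name the build mm10, STAR 2.5.3a and StringTie 1.3.1c, with Cufflinks and DESeq, and for read quality FastQC and Trim Galore, while the paper's methods give CASAVA, TopHat and Bowtie. How the counts were made from these was not stated. Symbols and exons came from GENCODE M21, in which 24122 identifiers matched. TMM factors came from edgeR 4.0.16, and ratios and intervals were computed in Python 3.11.15 with scipy 1.17.1. First exons were aligned globally with Biopython 1.88 (match 1, mismatch -1, gap opening -3, gap extension -1). The procedure was run on simulated counts with planted differences and counting error only, which cannot check calls against variation between cultures or libraries. The Ugt1a genes, the lists and the rules were chosen with earlier results of these data known. Named genes are the Ugt1a genes, the called and the most abundant genes of each list, genes known to act with Ugt1a, the 5 nearest coding genes on each side, and the 5 other genes with 0 DAC counts and the most control counts. The sums over the 3 genes nearest to exon 2 and over the 3 with the most counts were chosen after their values were seen, as were Ugt2b1, Ugt8a, Ugt2b5, Ugt2b34, Gm20528 and Gm15376. Alternatives were scaling by library totals, by size factors from DESeq2 1.42.0 or by upper quartiles, no filter or 5 CPM, a fold of 4, counts divided by 3, a floor of 1 count, a prior count of 2 and stretches of 75 or 100 bases. No p-value is given, since 1 library stands for each group. Some genes and sequences covered by these rules are not reported here.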

Additional observations from a re-analysis of the deposited data

How the results depend on the processing

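The ratios of the 8 Ugt1a genes were below 1 under all alternatives run, whether or not a gene passed the rule, and Ugt1a6b was called under none. The limits are the single library per group and the unknown treatment of shared reads. No paired analysis was possible because each group has 1 library. Library totals, which raise every log2 ratio by 0.19, moved the locus sum to a log2 ratio of -1.26, and the sum without Ugt1a7c was -1.84, beside -1.46 as reported. At a fold of 4 the locus sum (-1.46) was no longer called, and 3 Ugt1a genes were lower, against 2 with a minimum of 5 CPM. By library totals 458 genes in all were lower, and among the regulators 0 were lower and 2 higher, and 0 AhR targets were lower. Without a CPM filter 1239 genes were lower and 2672 higher, and the lists gave 1 lower gene among other UGT genes, 2 higher in bilirubin transport, 3 higher regulators, and 1 lower and 4 higher phase II genes. With 5 CPM 450 genes were lower and 684 higher, with 0 higher neighbors and 0 higher regulators. At a fold of 4, 112 genes were lower and 579 higher, with 0 higher genes of UDP-glucuronic acid supply, 0 higher of bilirubin transport, 0 lower regulators, 0 lower AhR targets, 1 higher NRF2 target and 1 higher phase II gene. DESeq2 or upper-quartile factors and intervals from counts divided by 3 moved no count of the lists by over 1.5 times. For single Ugt1a genes, Ugt1a7c lost its call by library totals and at a fold of 4, Ugt1a6a at a fold of 4, and Ugt1a1, Ugt1a2 and Ugt1a5 fell under the 5 CPM minimum, while Ugt1a8 and Ugt1a10 were called lower without a filter.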
